A study of Mus with 6 samples.

Results

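The postsynaptic density (PSD) and plasticity signalling genes examined here are the scaffolds, adhesion molecules, kinases, phosphatases and transcription factors that stand behind the glutamate receptors of excitatory synapses. They were chosen by name as a list of 38 genes, and 37 of them were measured as the only gene of a row of the array, out of 21789 rows that carry 1 gene symbol. The remaining member, Prkaca, shares its row with another gene and was not used. Where a gene had several rows, the row with the highest mean level was taken. The hippocampus of male C57BL/6JJmsSlc mice aged 10 to 11 weeks was analysed on 1-colour Mouse Gene ST arrays, with 1 mouse per array. FSS mice (n = 3) swam in a cylinder without escape for 11 min per day on 5 consecutive days, and control mice (n = 3) were not loaded with forced swim stress. By the methods, a tail suspension test followed the swims and the hippocampus was collected on Day 8, so the arrays show the tissue days after the last swim. Values are log2 levels made by robust multi-array averaging (RMA), on which a difference of 1 is a doubling. Group means were compared with limma, in which the variance of a gene is drawn towards the variance usual among all genes.

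At an excitatory synapse, glutamate receptors are held opposite the release site by a dense protein layer, the PSD. Scaffold proteins of the Dlg, Dlgap, Shank and Homer families link the receptors to each other and to actin, and adhesion molecules reach across the cleft to the axon terminal. Calcium that enters through NMDA receptors binds calmodulin, which activates the CaM kinases and the phosphatase calcineurin, and these set the number and state of the receptors. A signal to the nucleus reaches the transcription factor CREB, and the hippocampus, where this plasticity is studied as a basis of memory, is rich in all of these proteins.

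None of the 37 members was higher and none was lower in FSS mice at an unadjusted p under 0.05 from limma. The share of all genes so called was 2.49% higher and 2.66% lower, or 5.14% in either direction. No member passed an adjusted p of 0.05 either, where 0% of all genes passed, and no member had a log2 fold change over 0.5 in size with an unadjusted p under 0.05, the thresholds of the study's methods, which 0.0688% of all genes met. The members differed by -0.17 (Camk2d) to 0.094 (Dlg3) on the log2 scale. Their median was 0.013, against 0.0049 over all genes tested. No member differed by over 0.2 in size, as 4.25% of all genes did.

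The intervals of these differences were narrow. For 36 of 37 members the 95% interval of the log2 fold change lay within 0.25 of 0, which is a 1.19-fold difference, and the exception was Camk2d. Among all genes this share was 65.9%, and among the 10894 rows above the median level, where all measured members lie, it was 87.3%. The bound of 0.25 is not a threshold of the study's methods. The widest interval of a member apart from Camk2d, that of Camk2g, reached 0.235 and so lay just inside it. Each interval covers its own gene and was not widened for the number of members. The precision is limited by the small number of arrays.

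**Figure D1:**
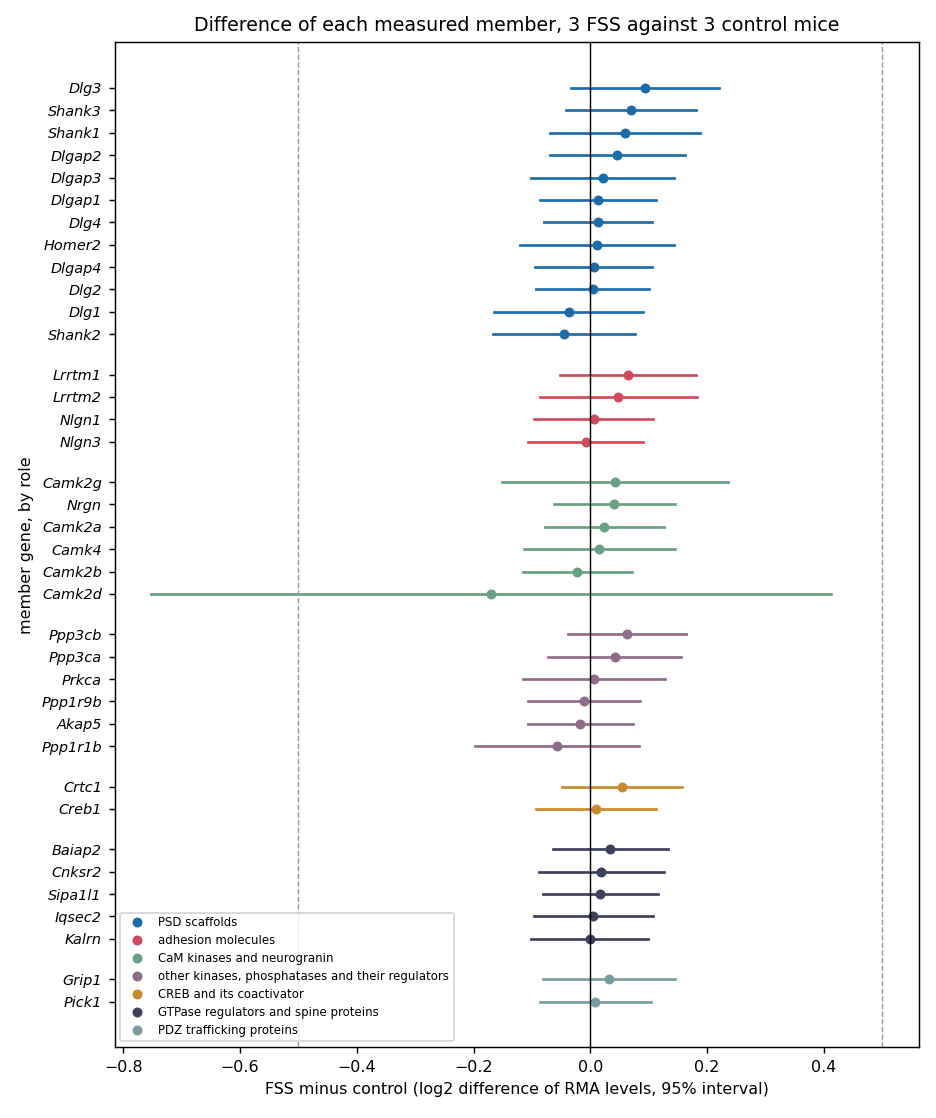
The 37 measured members (y axis, grouped and coloured by role) by their log2 fold change, the FSS mean less the control mean (x axis). Points are the differences of the means of 3 mice, lines are 95% intervals from limma, dashed lines mark 0.5 in size, and every interval spans 0, with that of Camk2d (-0.75 to 0.41) reaching past 0.5 in size.

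The 12 scaffold genes were measured at steady levels in both groups. Dlg4 encodes PSD-95, the best known scaffold of the PSD. Its levels were 12.38, 12.37 and 12.39 in control mice and 12.42, 12.38 and 12.38 in FSS mice (log2 levels of mice 1, 2 and 3, here and below). The difference was 0.013 (log2 fold change, 95% interval -0.080 to 0.11, adjusted p = 0.989 from limma), and the groups overlapped. The other Dlg genes encode related scaffolds that also anchor glutamate receptors and potassium channels. Dlg3, which encodes SAP102, had the highest difference of all members. Its levels were 9.88, 9.79 and 9.92 in control mice and 9.96, 9.90 and 10.01 in FSS mice. Control mouse 3 lay above FSS mouse 2, so the groups overlapped, and the difference of 0.094 (standard error 0.053, adjusted p = 0.943 from limma) was 0.059 without control mouse 2. For Dlg1, which encodes SAP97, the log2 fold change was -0.037, and for Dlg2, which encodes PSD-93, it was 0.0040.

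The Shank proteins form the deep layer of the PSD and bind Homer and Dlgap proteins. Shank3 had levels of 9.60, 9.58 and 9.56 in control mice and 9.66, 9.70 and 9.58 in FSS mice. FSS mouse 3 lay within the control range, and the difference was 0.069 (95% interval -0.042 to 0.18, adjusted p = 0.946 from limma). Shank1 had a log2 fold change of 0.059. Shank2 lay on the other side of 0, at 9.32, 9.32 and 9.43 in control mice and 9.36, 9.27 and 9.31 in FSS mice (log2 fold change -0.045, adjusted p = 0.971 from limma). The difference was -0.0090 without control mouse 3, the highest mouse. Shank2 was measured by 3 rows that did not give 1 direction, since the other rows had log2 fold changes of -0.12 and 0.022.

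Homer2, a Homer protein that links Shank to metabotropic glutamate receptors, had levels of 9.80, 9.77 and 9.93 in control mice and 9.84, 9.80 and 9.88 in FSS mice. All FSS mice lay within the range of the control mice, and the difference was 0.011 (95% interval -0.12 to 0.14, adjusted p = 0.994 from limma). Its second row gave -0.0043. The 4 Dlgap genes encode the proteins that join Dlg scaffolds to Shank. Their log2 fold changes ran from 0.0060 for Dlgap4 to 0.046 for Dlgap2, and the second row of Dlgap1 gave -0.019. Over the 12 scaffolds, 10 differences lay above 0 and 2 below, with a median of 0.013.

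The 4 adhesion molecules bind neurexins of the axon terminal. Lrrtm1, a leucine-rich repeat protein of excitatory synapses, had levels of 9.93, 9.85 and 9.93 in control mice and 10.02, 9.98 and 9.91 in FSS mice. FSS mice 1 and 2 lay above all control mice and FSS mouse 3 did not, with a difference of 0.064 (95% interval -0.052 to 0.18, adjusted p = 0.960 from limma). Nlgn1, the neuroligin of excitatory synapses, had levels of 10.84, 10.83 and 10.88 in control mice and 10.89, 10.85 and 10.82 in FSS mice. The groups overlapped and the difference was 0.0056 (95% interval -0.097 to 0.11). Lrrtm2 had a log2 fold change of 0.048, which was -0.00049 without FSS mouse 1, the highest mouse at 11.58. Nlgn3 had one of -0.0083.

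Among the CaM kinases, the most studied are the genes of CaMKII, a kinase of several subunits that is an abundant enzyme of the PSD. The alpha subunit gene, Camk2a, had levels of 13.53, 13.45 and 13.50 in control mice and 13.52, 13.54 and 13.50 in FSS mice (log2 fold change 0.024, 95% interval -0.078 to 0.13, adjusted p = 0.978 from limma). The beta subunit gene, Camk2b, had levels of 12.81, 12.79 and 12.83 in control mice and 12.78, 12.79 and 12.80 in FSS mice (log2 fold change -0.022, 95% interval -0.11 to 0.070). Both genes overlapped between groups, and their 6 mice spanned 0.087 and 0.053 on the log2 scale.

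The delta subunit gene was unlike the other members. Camk2d had levels of 9.35, 10.14 and 9.91 in control mice and 10.04, 9.33 and 9.52 in FSS mice. The 6 mice spanned 0.81 on the log2 scale, a 1.76-fold range, and high and low mice were found in both groups. The group means were 9.80 ± 0.41 (SD, n = 3) in control mice and 9.63 ± 0.36 (SD, n = 3) in FSS mice. Their difference of -0.17 (standard error 0.24, 95% interval -0.75 to 0.41, adjusted p = 0.975 from limma) was smaller than the spread within either group. Leaving out control mouse 1 gave -0.40 and leaving out FSS mouse 1 gave -0.37. Leaving out FSS mouse 2 gave -0.020 and leaving out control mouse 2 gave 0.00071, so no direction can be read from it. The pooled SD of Camk2d within groups was larger than that of 99.7% of all rows, whereas 35 of the 37 members had a pooled SD below the median of all rows. The other member with a wider spread was Camk2g, the gamma subunit gene, in which control mouse 1 was the lowest at 10.48 and the other mice lay between 10.65 and 10.77 (log2 fold change 0.042, which was -0.047 without control mouse 1).

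Markers of regions and cell types were set beside Camk2d, and the examples were chosen after their values were seen. Wfs1, a marker of CA1 pyramidal cells, had levels of 10.39, 10.67 and 10.69 in control mice and 10.72, 10.29 and 10.41 in FSS mice. Slc17a6, which encodes the vesicular glutamate transporter VGLUT2 and is low in hippocampal pyramidal cells and high in the thalamus, had levels of 7.98, 8.70 and 8.51 in control mice and 8.34, 8.08 and 8.32 in FSS mice. In Camk2d, Wfs1 and Slc17a6 alike, control mice 2 and 3 and FSS mouse 1 were the highest and the other mice the lowest. The same mice were the highest 3 for 2 of 9 pyramidal cell markers, Wfs1 and Mpped1, and for 3 of 8 thalamic markers. The share of all rows with this order was not counted, so whether these counts are unusual cannot be told. Grik4, a marker of CA3 pyramidal cells, had levels of 10.36, 10.19 and 10.29 in control mice and 10.26, 10.39 and 10.33 in FSS mice, lowest in control mouse 2, where Camk2d was highest. The mean level of 9 pyramidal cell markers was likewise lowest in control mouse 2, at 9.73, 9.70 and 9.75 in control mice and 9.76, 9.72 and 9.76 in FSS mice. That of 8 thalamic markers was 8.17, 8.28 and 8.24 in control mice and 8.32, 8.13 and 8.19 in FSS mice. Its highest 3 mice were those of Camk2d, control mice 2 and 3 and FSS mouse 1. The part of these markers in the spread of Camk2d was not tested. In dissected tissue, fewer cells of a type and less RNA per cell cannot be told apart.

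**Figure D2:**
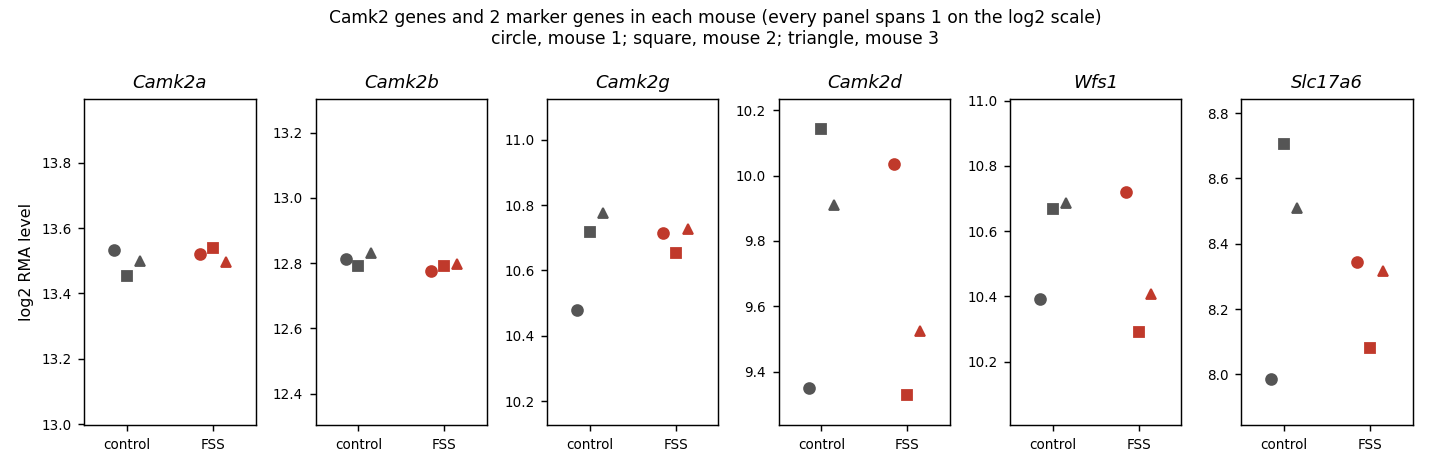
Log2 RMA level (y axis, each panel spanning 1 on the log2 scale) of the 4 CaMKII genes and of Wfs1 and Slc17a6 in each mouse, by group (x axis). Symbols are single mice, and Camk2d spans 0.81 with high and low mice in both groups, whereas Camk2a and Camk2b span 0.087 and 0.053.

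Camk4 encodes the CaM kinase that phosphorylates CREB in the nucleus, and its log2 fold change was 0.016 (95% interval -0.11 to 0.15). Nrgn encodes neurogranin, which holds calmodulin at low calcium in dendrites. Its levels were 12.21, 12.12 and 12.15 in control mice and 12.21, 12.18 and 12.21 in FSS mice (log2 fold change 0.041, adjusted p = 0.971 from limma). Control mouse 1 was as high as the FSS mice, and the groups overlapped.

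Of the other kinases, phosphatases and their regulators, 6 of 7 were measured, with 3 differences above 0 and 3 below. Ppp3ca and Ppp3cb encode the catalytic subunits of calcineurin, the calcium-activated phosphatase of the PSD. Ppp3ca had levels of 12.89, 12.82 and 12.93 in control mice and 12.94, 12.88 and 12.95 in FSS mice (log2 fold change 0.042, 95% interval -0.072 to 0.16). Ppp3cb had levels of 12.05, 12.05 and 12.11 in control mice and 12.14, 12.10 and 12.16 in FSS mice (log2 fold change 0.063, 95% interval -0.039 to 0.16, adjusted p = 0.946 from limma). In Ppp3cb only FSS mouse 2 lay below the highest control mouse. When limma let the variance follow the level of the gene, Ppp3cb was the single member to pass, with an unadjusted p of 0.0495 from limma in place of 0.186, and it was singled out for that after its values were seen. In that fit 3.46% of all rows were higher, a larger share than 1 of 37 members.

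Akap5, the anchor that brings protein kinase A and calcineurin to Dlg4, was the least variable member. Its levels were 9.22, 9.23 and 9.22 in control mice and 9.21, 9.20 and 9.21 in FSS mice, so that all FSS mice lay below all control mice (p = 0.1, two-sided, by exact permutation, and no lower p is possible with groups of 3). It was the 1 member of 37 without overlap, against 10.3% of all genes. The difference was -0.017 (95% interval -0.11 to 0.073, adjusted p = 0.984 from limma), a 0.988-fold level. The variance of Akap5 alone gave an unadjusted p of 0.0325, since only 0.0275% of all rows had a smaller pooled SD, and limma's moderated variance gave 0.668.

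Ppp1r1b encodes DARPP-32, an inhibitor of protein phosphatase 1 that is best known from striatal neurons. Its levels were 8.17, 8.33 and 8.32 in control mice and 8.23, 8.16 and 8.25 in FSS mice. The groups overlapped through control mouse 1, and the log2 fold change of -0.057 (95% interval -0.20 to 0.083, adjusted p = 0.971 from limma) was -0.11 without that mouse. The mean level of 6 striatal markers ranged from 8.68 to 8.75 in control mice and from 8.67 to 8.79 in FSS mice, and their part in the levels of Ppp1r1b was not tested. Prkca, a protein kinase C, had levels of 11.63, 11.48 and 11.54 in control mice and 11.58, 11.53 and 11.56 in FSS mice (log2 fold change 0.0065, 95% interval -0.12 to 0.13). Ppp1r9b, which encodes the spine protein spinophilin, had a log2 fold change of -0.011.

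Creb1 encodes the transcription factor CREB, and Crtc1 a coactivator that enters the nucleus on calcium signals and binds CREB. Creb1 had levels of 9.62, 9.66 and 9.70 in control mice and 9.68, 9.64 and 9.69 in FSS mice, all FSS mice lying within the control range (log2 fold change 0.0091, 95% interval -0.094 to 0.11, adjusted p = 0.994 from limma). Crtc1 had levels of 11.26, 11.27 and 11.23 in control mice and 11.30, 11.35 and 11.27 in FSS mice. FSS mouse 3 lay just below control mouse 2, and the difference was 0.054 (95% interval -0.049 to 0.16, adjusted p = 0.965 from limma). Both CREB and its coactivator are controlled by phosphorylation, which these arrays do not measure.

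The 5 regulators of small GTPases and spine shape differed by -0.0014 to 0.034. Kalrn encodes kalirin, an exchange factor that enlarges spines through Rac. It had levels of 10.55, 10.50 and 10.51 in control mice and 10.55, 10.51 and 10.49 in FSS mice (log2 fold change -0.0014, 95% interval -0.10 to 0.099, adjusted p = 0.999 from limma). Baiap2, which encodes the actin regulator IRSp53, had the highest difference of the group. Pick1 and Grip1 encode PDZ proteins that move AMPA receptors. Pick1 had levels of 8.98, 9.00 and 9.03 in control mice and 9.01, 8.99 and 9.03 in FSS mice (log2 fold change 0.0084, 95% interval -0.087 to 0.10), and Grip1 had a log2 fold change of 0.032.

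**Figure D3:**
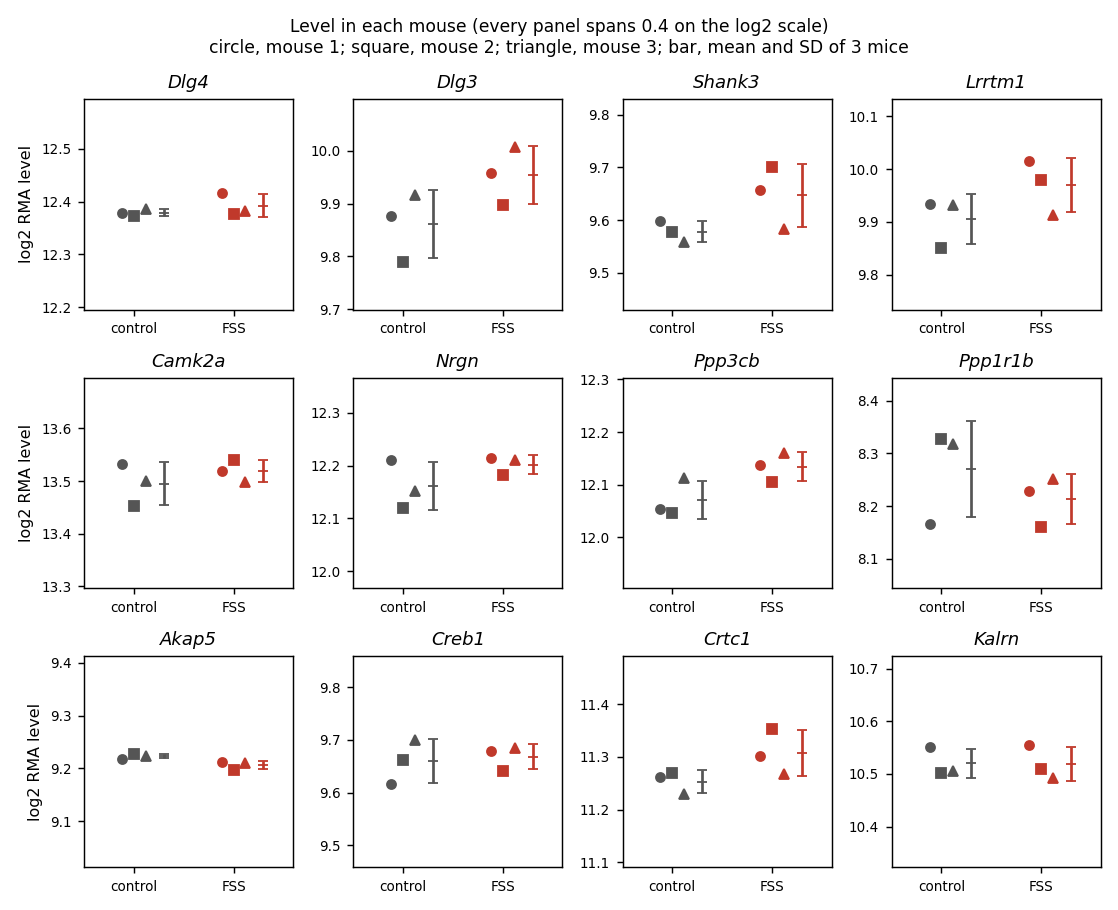
Log2 RMA level (y axis, each panel spanning 0.4 on the log2 scale) of 12 members in each mouse, by group (x axis). Symbols are single mice and bars are the mean ± SD of 3 mice. The groups overlap in every panel except that of Akap5, where all 6 mice lie within 0.030 on the log2 scale.

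The direction of the small differences was not settled. Of the 37 members, 28 had a difference above 0 and 9 below, that is 75.7% above 0 against 53.0% of all rows and 63.1% of rows above the median level. With quantile normalization between arrays 16 of 37 lay above 0 and the median of the members was -0.0020, and with the spread of each array as a covariate 22 of 37 lay above 0. Median centring gave 29, a block for replicate numbers 28 and array weights 27. Leaving out 1 mouse at a time gave 22 to 28. Relative to the mean of all 6 mice, FSS mouse 1 was higher in 30 of 37 members and control mouse 2 in 9. The median deviation of the members was 0.033 in FSS mouse 1, -0.0088 in FSS mouse 2 and -0.0044 in FSS mouse 3. It was -0.0095 in control mouse 1, -0.017 in control mouse 2 and 0.0091 in control mouse 3, so that only FSS mouse 1 lay above the control range. Without FSS mouse 1, 22 of 37 members lay above 0, with a median of 0.0078.

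Markers of hippocampal cell types were measured in the tissue. By level, the median granule cell marker ranked at 74.7% of all rows and the median neocortical marker at 78.3%. These levels do not tell the regions apart. Prox1, which marks granule cells, had levels of 9.83 to 9.94 in control mice and 10.01 to 10.05 in FSS mice, and Snap25, a neuronal gene of the axon terminal, had levels of 13.74 to 13.75 and 13.76 to 13.77. Of 8 pan-neuronal genes, none passed an unadjusted p of 0.05 (median log2 fold change 0.031). Of 8 granule cell markers 3 were higher and 0 lower (median 0.14), and of 8 astrocytic markers 3 were higher and 0 lower (median 0.099). Of 7 microglial markers 2 were higher and 0 lower (median 0.15). The shares of all genes were 2.49% higher and 2.66% lower. None of the CA pyramidal, GABAergic, oligodendrocyte, endothelial, striatal or thalamic markers passed. The neocortical, choroid plexus and meningeal lists each had 1 marker higher and 0 lower. The mean level of the 8 granule cell markers was 9.10 to 9.28 in control mice and 9.30 to 9.32 in FSS mice, while that of the 37 members was 10.75 to 10.78 and 10.76 to 10.81. The part of cell types in the levels of the members was not tested. The array medians differed by 0.032 at most.

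**Figure D4:**
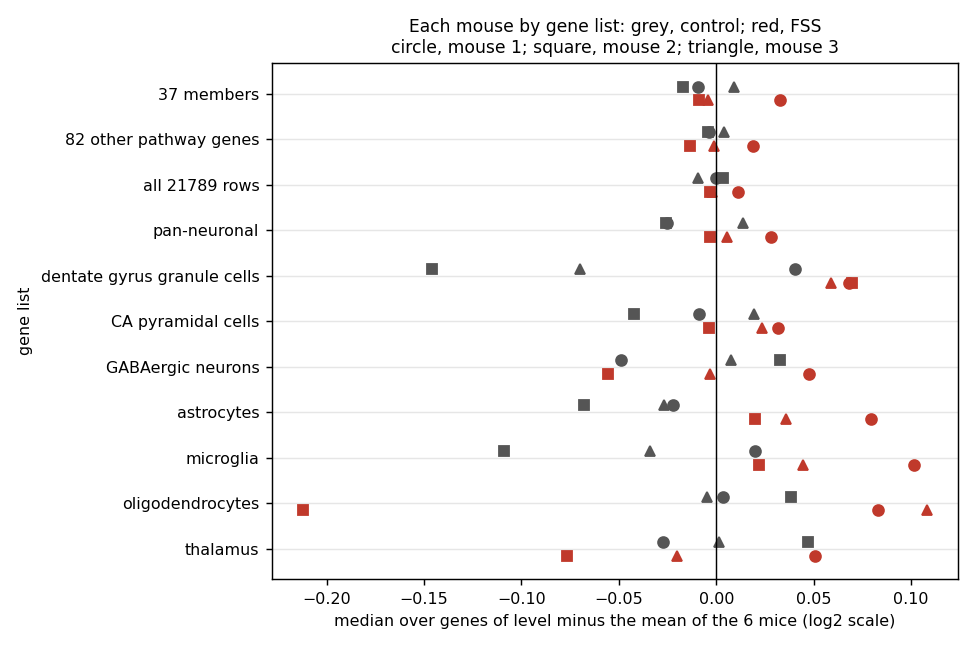
For each list of genes (y axis), the median over its genes of the level minus the mean of the 6 mice (x axis, log2 scale), with 1 symbol per mouse. Grey symbols are control mice and red symbols FSS mice. The 37 members lie between -0.017 and 0.033, and the 8 granule cell markers between -0.15 and 0.070.

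Other genes of the same pathways were then compared, from a list of 89 genes of which 82 were measured. Of these, 1 was higher in FSS mice, 1 was lower and 80 did not pass an unadjusted p of 0.05 from limma, against 2.49% and 2.66% of all genes. Their median log2 fold change was 0.0066. The higher gene was Sipa1l2, which encodes a relative of the spine protein Sipa1l1. Its levels were 9.16, 9.07 and 9.04 in control mice and 9.17, 9.26 and 9.21 in FSS mice, without overlap, and the difference was 0.13 (standard error 0.051, unadjusted p = 0.0426 and adjusted p = 0.943 from limma). The member Sipa1l1 itself had a log2 fold change of 0.017. The lower gene was Atf1, which encodes a transcription factor of the CREB family. Its levels were 9.05, 9.13 and 9.13 in control mice and 9.00, 9.02 and 8.97 in FSS mice, without overlap, and the difference was -0.11 (standard error 0.045, unadjusted p = 0.0457 and adjusted p = 0.943 from limma). Sipa1l2 no longer passed without control mouse 2 or 3 or FSS mouse 2 or 3, and Atf1 no longer passed without any 1 mouse other than control mouse 1.

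By role, the 25 measured scaffolds and spine proteins of this second list had 19 differences above 0 and a median of 0.022. The 19 adhesion molecules had 11 above 0 (median 0.0049), the 10 calmodulin and CaM kinase genes 5 (median -0.0016), and the 20 genes of protein kinases A and C and of phosphatases 12 (median 0.0053). Of 8 genes of the CREB family and its coactivators, 2 lay above 0 (median -0.012). Over the whole second list 59.8% lay above 0, against 53.0% of all rows and 63.1% of rows above the median level. Homer1, another scaffold gene of the Homer family, is named because the study's paper cites earlier work that found it reduced in FSS mice. The values of that work were not compared here. Homer1 had levels of 9.74, 9.60 and 9.73 in control mice and 9.72, 9.75 and 9.71 in FSS mice. The groups overlapped, and the difference was 0.035 (95% interval -0.090 to 0.16, adjusted p = 0.978 from limma). The row of Homer1 summarises the gene as a whole, so its short activity-induced form was not measured apart from the long ones. Groups did not overlap for 6 of the 82 genes with FSS mice above and for 2 with FSS mice below, against 6.02% and 4.25% of all genes.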

How the data were processed

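Hippocampal RNA of 3 control and 3 FSS mice was measured with 1 array per mouse. The deposited table holds log2 values, produced by the authors with RMA in the Affymetrix Expression Console according to the submitters' processing notes. RMA corrects for background, gives the probe values of all arrays the same distribution and then combines the probes of each row. A shift shared by all genes therefore cannot be seen, and small differences may be understated. The combined row values still differed between arrays, with SDs over the rows from 2.22 to 2.27 and medians from 7.32 to 7.35. The genome build is not given in the sources used here, and no coordinates or sequences were used. A further FSS mouse of the study was not analysed here.

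Of 28944 rows, 21789 carry 1 gene symbol in the array's annotation, 1621 carry several and 5534 are unnamed here. The gene IDs of all 37 measured members carry the same symbol in RefSeq. The 2-group model, with no covariate, was fitted over the 21789 rows in R 4.3.3 by lmFit and eBayes of limma 3.58.1, with Benjamini-Hochberg adjustment over all of them. The step was tested on simulated data. The members and lists were chosen with earlier results of these data known. Values of all mice are given for members with an unadjusted p under 0.05 or without overlap, for the 3 largest differences in each direction, and for 15 genes that stand for each role, and genes beyond this rule are named as such or as the ends of a range. The alternatives were other variance models, the methods' t-test, weights for the arrays, quantile normalization and median centring, leaving out dim rows, other rows and thresholds, the replicate number as a block, the array spread as a covariate and leaving out each mouse in turn.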

Additional observations from a re-analysis of the deposited data

How the results depend on the processing

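The number of members higher or lower in FSS mice was 0 in every alternative except 2, with 1 member higher (Ppp3cb) when limma followed the level of the gene and 1 lower (Akap5) by the methods' t-test. The shares of all rows were 3.46% higher with that trend and 2.04% lower by the t-test, so 1 of 37 members is near the background. Of all rows, 0 passed after Benjamini-Hochberg adjustment in those alternatives. Without each mouse in turn both counts of members stayed at 0. In the second list, where 1 gene was higher and 1 lower, the methods' t-test gave 3 higher (2.96% of all rows), the trend gave 2 lower (2.14%), array weights and quantile normalization gave 0 higher, and median centring and the fit of all rows of the table gave 0 lower. At a log2 fold change over 0.5 or over 0.2 in size, or at the adjusted p threshold, 0 genes of that list were higher and 0 lower. Without each mouse its counts were 0 to 1 higher and 0 to 3 lower, the 3 without control mouse 1, where 2.65% of all rows were lower.

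The replicate number as a block gave 0 members higher and 0 lower, and 0 and 0 genes of the second list. Nothing in the labels says that the numbers pair mice. Deviations of same-numbered mice from their group means correlated at -0.048, 0.14 and 0.24. Those of differently numbered mice correlated at -0.26 to 0.13. With 3 mice per group these values cannot settle whether the numbers pair mice.

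Differences near 0 changed sign. Quantile normalization gave log2 fold changes of -0.012 for Dlg4, -0.0013 for Homer2, -0.0020 for Nlgn1, -0.011 for Creb1, -0.015 for Prkca and -0.0084 for Pick1. Median centring gave 0.0016 for Kalrn. The spread of the array as a covariate gave -0.032 for Homer2, -0.0038 for Nlgn1, -0.011 for Creb1, -0.0042 for Prkca and -0.0054 for Pick1. Without each mouse the range was -0.022 to 0.059 for Homer2, -0.014 to 0.023 for Nlgn1, -0.012 to 0.030 for Creb1, -0.019 to 0.015 for Kalrn, -0.0030 to 0.022 for Pick1, -0.029 to 0.045 for Prkca, -0.012 to 0.062 for Homer1, -0.047 to 0.10 for Camk2g and -0.40 to 0.00071 for Camk2d. Why these values moved was not tested.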

Other observations

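The pattern of Camk2d over the 6 mice was shared by other rows. Over the 6 mice, 263 other rows had a Pearson r over 0.9 with Camk2d, and 33 of these spanned over 0.4 on the log2 scale, both thresholds being chosen after the values were seen. Among the 33 were 5 of the 7 rows of Unc13c, a gene of synaptic vesicle priming. The Unc13c row with the highest level was not among them, at 8.72, 8.77 and 8.77 in control mice and 8.63, 8.71 and 8.46 in FSS mice. With 6 mice and this many rows, many rows follow any 1 gene, so this is a description without a test.

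Prkcd, a protein kinase C gene that is also a thalamic marker, had levels of 8.56, 8.40 and 8.45 in control mice and 9.03, 8.44 and 8.48 in FSS mice, and its log2 fold change of 0.18 was -0.0060 without FSS mouse 1.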
